A study of Mus musculus with 10 samples.

Results

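The Trim5, Trim12, Trim30 and Trim34 genes form a cluster of close relatives on mouse chromosome 7, and their RNA levels were compared between colon tumours of Ucp2-/- (KO) and Ucp2+/+ (WT) mice. The 10 cluster genes were looked up by symbol in the platform annotation of the deposited table, and 8 of them had a probe set among the 23111 named genes: Trim6, Trim34a, Trim5, Trim12a, Trim12c, Trim30b, Trim30a and Trim30d. Trim34b and Trim30c were not analysed here. The cluster was chosen by the KO minus WT differences of its genes on these same 10 arrays, because close relatives differed in opposite directions, so every difference between the genotypes in these 8 genes is given below as a description, without a test.

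There were 5 KO tumours (replicates 6 to 10) and 5 WT tumours (replicates 1 to 5), each on its own 1-colour array. Both groups are labelled as C57BL6/J mice, received azoxymethane, a carcinogen, with dextran sodium sulphate, a polymer that inflames the colon (AOM/DSS), and were killed at week 15. Age is not given, and nothing in the labels ties a sample to a mouse of its own, so a p-value measures only the spread between these samples. The labels state neither how Ucp2, which encodes a carrier of the inner mitochondrial membrane, was inactivated nor in which strain. Ucp2 lies on chromosome 7 too, with 141 measured genes between it and Trim6, and in this design the knockout itself and any stretch of chromosome 7 inherited with it cannot be told apart.

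The probe set that carries the gene number of Ucp2, which the platform annotation leaves unnamed, read 9.97, 9.73, 9.73, 9.82 and 9.97 in KO replicates 6 to 10, against 10.84, 11.39, 11.19, 11.55 and 11.52 in WT replicates 1 to 5, all as log2 signals. Every KO array lay below every WT array. Where its probes lie relative to the deleted part is not known here. The median signal of the arrays ran from 5.84 to 5.93 on the log2 scale. All 12 measured epithelial markers, among them the mucin gene Muc2 (means of 12.51 in KO and 12.35 in WT) and the keratin gene Krt20 (11.19 in KO and 10.97 in WT), averaged above the guide to background used below.

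TRIM proteins are ubiquitin ligases built from a RING finger, a B-box and a coiled coil, and many carry a C-terminal domain that recognises other proteins. Human TRIM5 binds the capsids of incoming retroviruses, and the mouse cluster is a local expansion of the same neighbourhood in which the Trim5, Trim12 and Trim30 genes are the relatives of human TRIM5. Many genes of this family are switched on by interferon, through transcription factors of the IRF and STAT families that bind the interferon-stimulated response element (ISRE). Trim30a of the mouse is known to restrain NF-kB signalling by promoting the loss of the adaptor proteins TAB2 and TAB3.

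Start regions of Trim12a with Trim12c and of Trim30d with Trim30a, whose levels went in opposite directions, are shown first, because each pair is nearly the same sequence. They were taken from RefSeq for assembly GRCm38.p6, a C57BL/6J genome, and span 250 bases before to 50 bases after the annotated transcript start. They are the reference and were not read in these mice. Capitals mark the core of the ISRE, searched on both strands as GAAA, any 2 bases and GAAA again, and found here in its reverse form, TTTC, any 2 bases and TTTC. The Trim12a window is chr7:104315446-104315745 (minus strand), that of Trim12c chr7:104353300-104353599 (minus strand), that of Trim30d chr7:104507800-104508099 (minus strand) and that of the first listed start of Trim30a chr7:104465144-104465443 (minus strand).
Trim12a: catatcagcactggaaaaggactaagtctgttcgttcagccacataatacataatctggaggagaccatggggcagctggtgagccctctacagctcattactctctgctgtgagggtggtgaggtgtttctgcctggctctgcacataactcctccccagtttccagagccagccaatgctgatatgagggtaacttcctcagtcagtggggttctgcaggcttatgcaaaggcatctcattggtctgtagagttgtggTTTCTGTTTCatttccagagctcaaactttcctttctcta
Trim12c: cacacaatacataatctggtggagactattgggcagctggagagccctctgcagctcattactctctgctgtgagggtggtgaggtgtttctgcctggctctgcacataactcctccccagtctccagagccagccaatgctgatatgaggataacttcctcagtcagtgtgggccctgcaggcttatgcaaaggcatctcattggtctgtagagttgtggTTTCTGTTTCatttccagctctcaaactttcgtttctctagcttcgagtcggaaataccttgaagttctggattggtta
Trim30d: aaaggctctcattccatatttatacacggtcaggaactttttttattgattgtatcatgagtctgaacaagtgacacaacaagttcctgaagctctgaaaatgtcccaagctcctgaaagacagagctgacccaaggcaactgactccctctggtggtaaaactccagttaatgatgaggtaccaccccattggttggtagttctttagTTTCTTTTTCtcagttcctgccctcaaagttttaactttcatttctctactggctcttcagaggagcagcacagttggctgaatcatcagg
Trim30a: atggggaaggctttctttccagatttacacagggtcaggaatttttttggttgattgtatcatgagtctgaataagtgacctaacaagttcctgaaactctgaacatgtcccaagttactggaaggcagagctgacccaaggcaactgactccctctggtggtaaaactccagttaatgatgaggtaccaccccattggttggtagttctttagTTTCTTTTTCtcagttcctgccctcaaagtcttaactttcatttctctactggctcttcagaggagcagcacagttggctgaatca

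The start regions of Trim12a and Trim12c were 94.6% identical over 261 aligned positions, and those of Trim30d and Trim30a were 93.9% identical over 294. Trim5 and Trim12a shared 241 positions with 100% identity. In the reference, Trim12a with Trim12c and Trim30d with Trim30a thus had nearly the same start sequence. These pairs come from genes chosen for opposite differences, and their start regions were not read in these mice. Whether the start sequence bears on the levels was not tested. The higher level of Trim30a in KO is itself uncertain, since its groups overlapped widely, as described below. The start regions of Trim6 and Trim34a, which also differed in opposite directions, were 58.9% identical over 141 aligned positions. All 10 genes matched a RefSeq start region, 11 windows in all, since Trim30a has a pair of listed starts. The ISRE core was present in 7 of the 11 windows and in 6 of the 10 genes, against 3.44% of all 32851 start regions and 3.99% of all 27025 genes. Several of the 7 windows are near copies of each other, so they are not independent matches. Trim6, Trim34b, Trim30b and Trim30c had no match in their window. The core of the STAT-binding GAS element, TTCNNNGAA, was found in 1 window of the cluster, that of Trim30c, and in 8.3% of all windows.

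Shorter stretches of 40 bases around the ISRE core show how it compares across the rest of the cluster. The Trim34a stretch is chr7:104244452-104244491 (plus strand), that of Trim5 chr7:104288131-104288170 (minus strand) and that of Trim30c chr7:104400891-104400930 (minus strand), and Trim30c is capitalised at the positions aligned to the element of Trim30a.
Trim34a: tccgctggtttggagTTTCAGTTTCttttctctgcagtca
Trim5: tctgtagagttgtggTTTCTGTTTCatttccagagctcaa
Trim30c: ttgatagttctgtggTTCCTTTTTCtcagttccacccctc
Trim30c differed from Trim30a at 1 of the 10 bases of the element, T3C, counted from 1 at the 5′ end of the printed strand with the base of Trim30a first.

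A guide to background was set at a log2 signal of 5.09, below which the mean signal of 95% of 1071 olfactory receptor genes lay. Means are followed by the standard deviation (SD) of the 5 arrays, and log2 differences, always KO minus WT, by the standard error (SE) from the limma fit over all genes. Probes of one family member can bind transcripts of another, so the level of a single gene is uncertain. The sequences that the probes meet in these mice were not read, so folds and bounds refer to signal.

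Among the Trim5 and Trim12 genes, Trim12a had the lowest KO signal relative to WT. Its log2 signals were 4.85, 5.05, 2.88, 4.23 and 4.93 in KO replicates 6 to 10, against 8.07, 7.22, 7.76, 7.52 and 7.02 in WT replicates 1 to 5. All 5 KO arrays lay under the guide to background, all 5 WT arrays lay above it, and the groups were far apart. The means were 4.39 ± 0.90 in KO and 7.52 ± 0.42 in WT (SD, n = 5 each), a difference of -3.13 ± 0.38 (SE). Because the KO signals could be background, the difference is best read as a bound, and against the guide the Trim12a signal was at least 5.37-fold lower in KO tumours. With the guide at the 99th percentile of the olfactory receptor genes (6.16) the bound was 2.57-fold, and at the 90th (4.47) 3 of the 5 KO arrays were above it.

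Trim12c, its near copy, differed the other way. It read 6.66, 6.96, 6.61, 6.81 and 6.86 in KO replicates 6 to 10, against 6.64, 6.59, 5.88, 6.26 and 5.84 in WT replicates 1 to 5. The KO arrays were tightly grouped and 3 of the WT arrays lay clearly below them, while WT replicate 1 was just above and WT replicate 2 just below the lowest KO array. The difference was 0.54 ± 0.16 (SE), or 1.45-fold higher in KO, with means of 6.78 ± 0.15 in KO and 6.24 ± 0.38 in WT (SD, n = 5 each). Trim5, whose start region matches that of Trim12a, was dim in both genotypes. Its signals ran from 3.03 to 3.90 in KO and from 4.08 to 5.21 in WT, without overlap, and 1 WT array alone was above the guide, so no fold is given.

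Among the Trim30 genes, Trim30d had the same pattern as Trim12a. It read 3.70, 4.49, 4.74, 4.39 and 3.65 in KO replicates 6 to 10, against 6.98, 6.60, 6.01, 6.15 and 4.60 in WT replicates 1 to 5. No KO array reached the guide, and WT replicate 5 lay among the KO values while the other WT arrays were well above. The means were 4.19 ± 0.49 in KO and 6.07 ± 0.91 in WT (SD, n = 5 each), with a difference of -1.88 ± 0.40 (SE), at least 1.97-fold lower in KO against the guide. No bound could be given with the guide at the 99th percentile, above the WT mean, and at the 90th 2 KO arrays exceeded it.

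Trim30a, the regulator of NF-kB signalling, read 6.18, 7.46, 6.97, 6.82 and 6.44 in KO replicates 6 to 10, against 7.11, 6.71, 4.88, 6.39 and 5.10 in WT replicates 1 to 5. The groups overlapped widely, and the lower WT mean came from WT replicates 3 and 5. The difference was 0.73 ± 0.43 (SE), with means of 6.77 ± 0.49 in KO and 6.04 ± 0.99 in WT (SD, n = 5 each). It was 0.44 without WT replicate 3 and 0.04 without WT replicates 3 and 5 together. Without both, the differences of the other higher genes were 0.28 for Trim12c and 0.21 for Trim6. Trim30b was dim throughout, from 3.10 to 3.68 in KO and from 3.71 to 5.03 in WT. Its groups did not overlap, but no array exceeded the guide and no fold is given.

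At the start of the cluster, Trim34a and Trim6 also parted. Trim34a, whose human counterpart acts on retroviral capsids together with TRIM5, read 5.43, 4.60, 5.40, 5.32 and 5.25 in KO replicates 6 to 10, against 6.64, 6.77, 6.16, 6.60 and 5.98 in WT replicates 1 to 5. Every KO array was below every WT array, and 4 of 5 KO arrays stayed above the guide. The difference was -1.23 ± 0.19 (SE), or 2.35-fold lower in KO by measured signal. The means were 5.20 ± 0.34 in KO and 6.43 ± 0.34 in WT (SD, n = 5 each), so the KO mean lay near the guide. With the guide at the 99th percentile (6.16) 0 KO arrays were above it, and the bound was 1.21-fold.

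Trim6, whose human counterpart builds ubiquitin chains that promote interferon signalling, read 6.23, 6.78, 6.95, 6.18 and 6.36 in KO replicates 6 to 10, against 6.39, 6.25, 5.81, 6.22 and 5.71 in WT replicates 1 to 5. The groups overlapped, with KO replicates 7 and 8 above all WT arrays and WT replicates 3 and 5 below all KO arrays. The difference was 0.43 ± 0.18 (SE). In all, 3 of the 8 genes had a positive difference and 5 a negative one, where 42.2% of all genes tested had a positive one. KO arrays lay wholly below WT arrays in 4 of the 8, a pattern seen in 0.506% of all genes, and wholly above in 0, against 0.329%.

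By measured signal, 5 of the 8 genes were lower by 1.5-fold or more and 1 was higher by as much, where 0.182% and 1% of all genes were, but 2 of the 5, Trim5 and Trim30b, lay near background and give no fold. The median difference of the 8 was -0.85, beside -0.02 for all genes. These shares describe the choice of the cluster and are no finding about it.

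**Figure D1:**
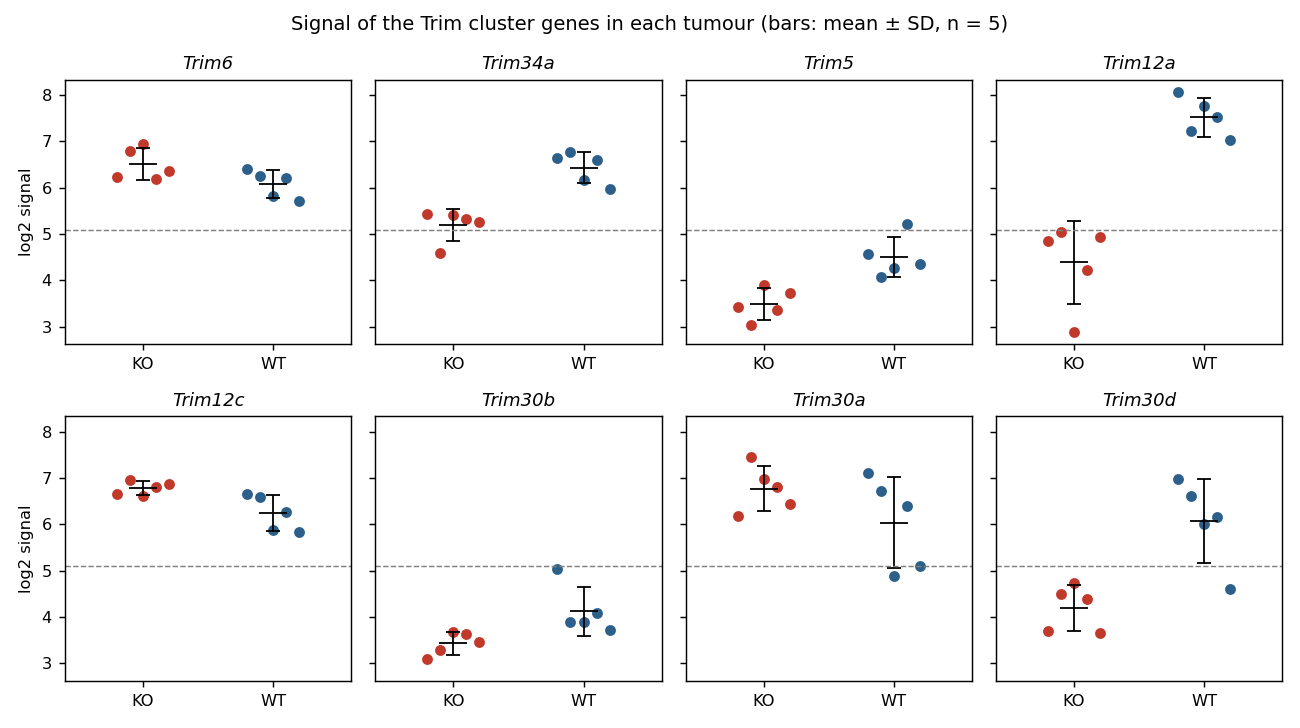
Log2 signal (vertical axis) of each of the 8 measured cluster genes in the 5 KO tumours (red) and 5 WT tumours (blue), 1 point per array in order of replicate number, with the mean and SD in black and the guide to background of 5.09 as a dashed line. Trim12a and Trim30d lie under the line in all KO tumours and Trim5 and Trim30b are dim in both genotypes, while Trim6 and Trim12c lie above it in all 10 tumours.

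Setting a gene against its relative within the same array removes what both share in a tumour. The following pairs were taken from genes chosen for opposite differences, so that a separation of the genotypes is built into the choice and only its size is described. Since 2 probe sets have no common scale, only the change between genotypes can be read, and as Trim12a and Trim30d are under the guide in KO, their shifts are not exact. The log2 signal of Trim12a minus that of Trim12c ran from -3.73 to -1.81 in KO and from 0.63 to 1.88 in WT, a shift of -3.67. For Trim30d minus Trim30a the range was -2.97 to -2.23 in KO and -0.50 to 1.13 in WT, a shift of -2.61.

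In the Trim30 pair, WT replicate 5, the WT array lowest in Trim30d, read -0.50 and so was not among the KO arrays. Trim34a minus Trim6 was -1.30 ± 0.58 in KO and 0.36 ± 0.11 in WT (SD, n = 5 each), again without overlap.

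**Figure D2:**
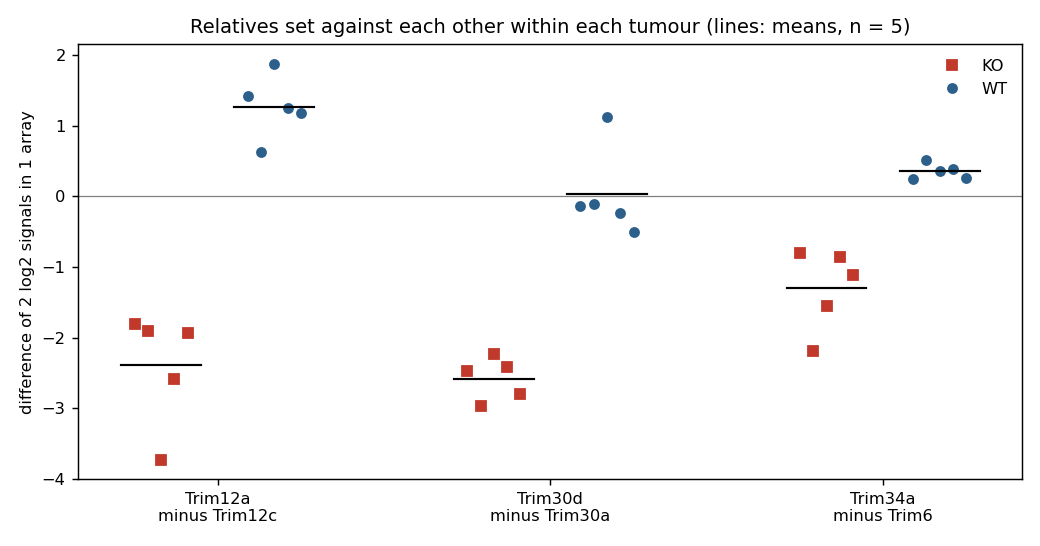
Difference of the log2 signals of 2 cluster genes within each array (vertical axis) for 3 pairs taken from genes chosen for opposite differences, with KO tumours as red squares, WT tumours as blue circles and the mean of each genotype as a black line (n = 5). In each pair all KO tumours lie below all WT tumours, and the gap is widest for Trim12a minus Trim12c (-3.73 to -1.81 in KO, 0.63 to 1.88 in WT).

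The genes beside the cluster were compared in the same way, although most of them were too dim to read. In RefSeq order the cluster genes run Trim6, Trim34a, Trim5, Trim12a, Trim34b, Trim12c, Trim30b, Trim30c, Trim30a and Trim30d, so that the higher genes Trim6, Trim12c and Trim30a lie interspersed among the lower ones. Of 32 other measured genes lying between the cluster genes or among the 15 on either side, 0 passed over all genes tested by limma (lowest adjusted p = 0.255), and 2 were lower and 0 higher in KO at unadjusted p under 0.05, against 2.55% and 2.22% of all genes. These 2, named after their values were seen, were the predicted gene Gm15133 between Trim12a and Trim12c, with means of 3.24 in KO and 4.11 in WT, and the pseudogene Trim30e-ps1 just after Trim30d, with means of 2.97 in KO and 3.16 in WT.

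Both were under the guide to background, and only 2 of the 32 genes had a mean above it. Most of the neighbours are olfactory receptor genes, which are hardly transcribed in colon, so a difference there may not be visible. The median difference of the 32 was -0.05. The count of 2 was 1 without KO replicate 6, 7, 8 or 10 or WT replicate 2.

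**Figure D3:**
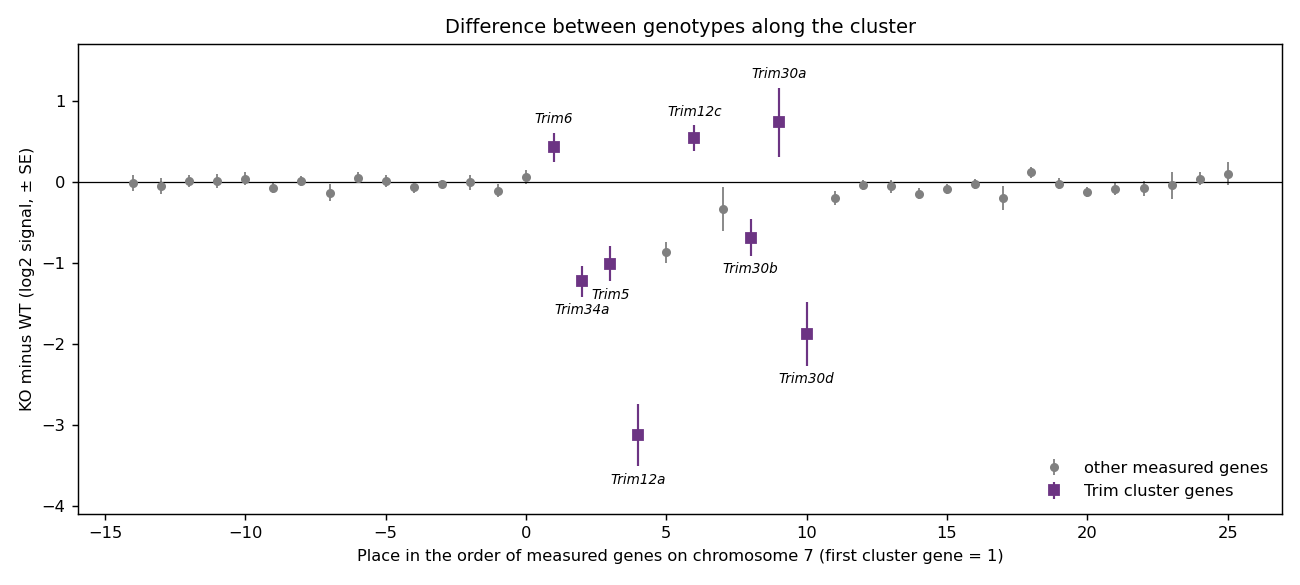
KO minus WT difference of log2 signal with its SE (vertical axis) for the 8 cluster genes (purple squares) and 32 other measured genes (grey), in their order on chromosome 7 counted from Trim6 as 1 (horizontal axis). Cluster genes lie on both sides of 0, from -3.13 for Trim12a to 0.73 for Trim30a, and apart from Gm15133 at place 5 and a further predicted gene at place 7 the neighbours lie near 0.

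How the genes varied within a genotype had no part in choosing them. Trim30a and Trim30d varied most among WT tumours, with an SD of 0.99 and 0.91, and just 1.06% and 1.29% of all genes had an SD as large there. Among KO tumours Trim12a had the greatest SD of the 8, 0.90, as large as in 0.744% of all genes, and these signals lay under the guide. Trim12c had the smallest SD of the 8 in KO, 0.15, which was not small among all genes, since only 42.5% of them equalled or exceeded it.

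The same WT tumours were low in gene after gene. WT replicate 5 was the lowest WT array in 6 of the 8 genes, WT replicates 3 and 5 were each among the 2 lowest WT arrays in 7, and WT replicate 1 was the highest in 6. In KO tumours no array led in more than 4 genes. This order was also that of interferon-induced genes. The score of 24 measured type I interferon genes, their mean log2 signal after removing each gene's mean, was 0.11, 0.54, 0.52, 0.21 and -0.08 in KO replicates 6 to 10, against 0.24, 0.00, -0.56, -0.15 and -0.83 in WT replicates 1 to 5.

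After subtracting genotype means, Trim30d, Trim30a and Trim6 followed this score over the 10 arrays with Pearson's r of 0.92, 0.92 and 0.87 and Spearman's rho of 0.93, 0.93 and 0.81. Trim12c (r = 0.76) and Trim30b (r = 0.64) came next. Among KO arrays Trim12c did not rise with the score: it ran from 6.61 to 6.96, and KO replicate 10, lowest in score, read 6.86. Trim34a (r = 0.38, rho = 0.38) and Trim5 (r = 0.06, rho = -0.08) followed it less or not at all. For Trim12a r was -0.02 and rho 0.27, with KO signals under the guide, so its relation to the score is uncertain. Without WT replicates 1 and 5, the arrays farthest from the median score, r was 0.85, 0.87 and 0.84 for the first 3. It was 0.50 for Trim12c, 0.18 for Trim30b, 0.02 for Trim34a, -0.07 for Trim5 and -0.48 for Trim12a. These values describe arrays that share their normalization and carry no p.

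Trim30d thus rose with the interferon score in WT tumours, and its KO signals were ordered nearly alike at a lower level. Its 3 highest KO arrays, replicates 8, 7 and 9, had the 3 highest KO scores, and still read 4.74 or less. All KO signals of Trim30d lay under the guide, and its probes may bind transcripts of a relative, so a relation in KO is uncertain. Trim12a, Trim5 and Trim12c share the same ISRE core in nearly the same flanks in the reference sequences printed above. Of these only Trim12c had an r above 0.1 with the score over all arrays, and it did not rise with the score among KO arrays. Absence of a relation cannot be judged for Trim5, which is dim, or for Trim12a, whose r includes KO signals under the guide. Among WT arrays, replicate 1 was highest and replicate 5 lowest in both Trim12a and the score. WT replicate 3 went the other way, with a Trim12a signal of 7.76 at a score of -0.56. A correlation within WT alone was not computed.

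**Figure D4:**
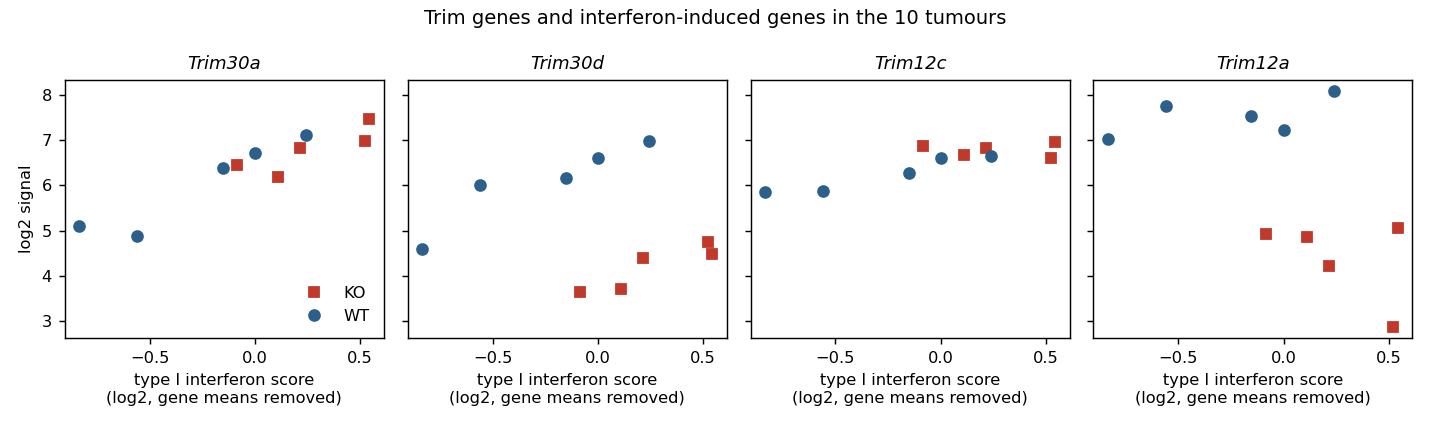
Log2 signal of 4 cluster genes (vertical axis) against the type I interferon score of the same tumour (horizontal axis, log2 scale), with KO tumours as red squares and WT tumours as blue circles. Trim30a lies along 1 band for both genotypes, while Trim12c rises with the score in WT tumours and stays at 6.61 to 6.96 in KO tumours. Trim30d rises with the score among WT tumours and, at a lower level under the guide to background, among KO tumours. Trim12a splits by genotype with no common slope (r = -0.02 after subtracting genotype means), and its KO values lie under the guide.

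Interferon-induced genes were on average higher in KO tumours, with scores that overlapped between the genotypes (-0.08 to 0.54 in KO and -0.83 to 0.24 in WT). All 24 measured type I interferon genes had a positive difference, with a median of 0.48. By limma 0 passed over all genes tested, and 14 were higher and 0 lower at unadjusted p under 0.05, against 2.22% and 2.55% of all genes. Usp18, which removes the ubiquitin-like protein ISG15, differed by 0.82 ± 0.23 (SE), the nucleotide kinase gene Cmpk2 by 0.54 ± 0.16, Oas2, a sensor of double-stranded RNA, by 1.16 ± 0.39 and Rtp4 by 0.65 ± 0.22 (limma adjusted p = 0.91 each). The count of 14 rested on single arrays: it was 9, 5 and 7 without KO replicate 6, 7 or 8, 22 without WT replicate 1, 6 without WT replicate 3 or WT replicate 5, and 1 without the last 2 together.

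With the interferon score in the fit, the genes split. The difference of Trim30a was -0.31 ± 0.23 (SE) in place of 0.73, that of Trim6 0.02 ± 0.13 in place of 0.43 and that of Trim12c 0.22 ± 0.15 in place of 0.54. The lower genes kept their sign, with -3.11 ± 0.51 for Trim12a, -1.42 ± 0.24 for Trim34a, -1.05 ± 0.29 for Trim5 and -1.07 ± 0.23 for Trim30b. Trim30d was lower still, at -2.85 ± 0.21. Since the mean score also differs between the genotypes, such a fit takes part of any genotype effect with it. The scores of the genotypes overlapped only from -0.08 to 0.24. KO replicates 7 and 8 and WT replicates 3, 4 and 5 lay outside that range, where the fit extrapolates with 1 slope for both genotypes.

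Macrophage markers moved with genotype as well. Among the 12 macrophage and dendritic cell markers measured, 11 had a mean above the guide, and 10 were higher and 0 lower in KO at unadjusted p under 0.05, against 2.22% and 2.55% of all genes, with 0 past the adjusted threshold of limma. They were led by C1qc (0.46 ± 0.10, SE), C1qb (0.60 ± 0.14), both chains of complement C1q, the integrin gene Itgax (0.37 ± 0.09) and Ms4a7 (0.56 ± 0.13), each with a limma adjusted p of 0.91. The summed log2 signal of the 12 ran from 90.35 to 95.63 in KO and from 87.38 to 90.31 in WT, just short of overlapping.

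With the macrophage score in the fit, Trim30a was at -0.62 ± 0.61 (SE), Trim6 at -0.19 ± 0.24 and Trim12c at 0.18 ± 0.27. Trim12a was at -2.77 ± 0.70, Trim30d at -2.68 ± 0.68 and Trim34a at -1.005 ± 0.35. This score ran from -0.04 to 0.40 in KO and from -0.29 to -0.05 in WT. No KO and WT tumours shared a score, so these differences are extrapolated and do not compare tumours at the same score. In bulk tumour RNA, fewer cells of a type and less RNA per cell cannot be told apart. With the epithelium score, whose 12 genes had 0 at unadjusted p under 0.05 in limma, all 8 differences kept their sign, from -3.20 for Trim12a to 0.47 for Trim30a.

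**Figure D5:**
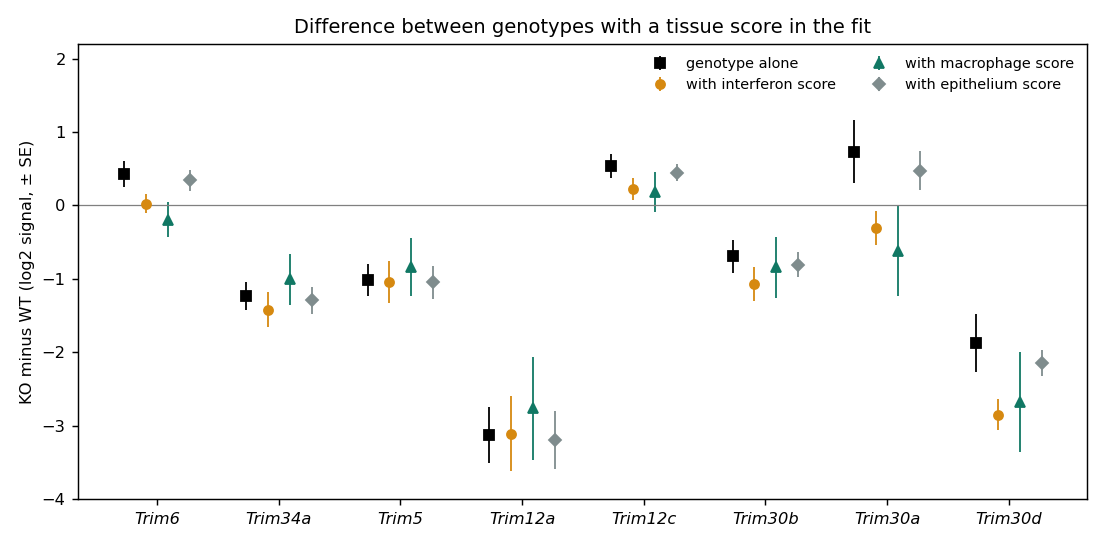
KO minus WT difference of log2 signal with its SE (vertical axis) for the 8 cluster genes in chromosome order, from the fit with genotype alone (black) and with the interferon (orange), macrophage (green) or epithelium (grey) score added. Trim12a, Trim34a, Trim5, Trim30b and Trim30d stay below 0 in all 4 fits, and Trim30a changes sign with the interferon and macrophage scores (-0.31 and -0.62). The macrophage scores of the genotypes do not overlap, so the fit with them extrapolates, and the interferon scores overlap only in part.

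Markers of some other cells that a dissected tumour can hold were higher in KO on average as well. All 8 smooth muscle genes had a positive difference, with a median of 0.40, as had 9 of 11 T and NK cell genes (0.36) and 6 of 7 B and plasma cell genes (0.36), while neutrophil, fibroblast and endothelial genes had medians of 0.02, 0.06 and 0.00. At unadjusted p under 0.05, 3 of 11 T and NK cell genes were higher in KO (5 without KO replicate 10), 1 of 8 neutrophil genes was higher and 1 of 8 fibroblast genes was lower, where 2.22% of all genes were higher and 2.55% lower. Of 7 B and plasma cell genes, 8 smooth muscle genes and 8 endothelial genes, 0 were, and no list had a gene past the adjusted threshold of limma. The summed log2 signals overlapped between the genotypes in each of these 6 lists. The part of these cells in the levels of the Trim genes was not tested.

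Trim genes outside the cluster differed little between the genotypes. Of 58 other measured genes named Trim with a number, 0 passed over all genes tested by limma, and 3 were higher and 2 lower in KO at unadjusted p under 0.05, near the background of 2.22% and 2.55%. Trim68 (0.26 ± 0.07, SE) and Trim21, the cytosolic antibody receptor (0.40 ± 0.14), were higher, as was Trim14, an adaptor of antiviral signalling (0.22 ± 0.08), and Trim17 (-0.20 ± 0.06) and Trim67, with means of 3.72 in KO and 3.99 in WT, were lower (limma adjusted p = 0.91 each). Trim67 was named after its values were seen. Differences of the 58 ran from -0.27 to 0.42, with a median of -0.03. Of 43 Trim genes outside the cluster with a listed start region, whether measured or not, 3 held the ISRE core. Trim68 and Trim21 lie between Ucp2 and the cluster in RefSeq order, and they were the 2 at unadjusted p under 0.05 among the 6 of the 58 measured genes on chromosome 7. The count of 5 was 8 without WT replicate 2.

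Genes through which TRIM proteins of this family act, or are induced, were listed as well. Of 16 measured genes of interferon receptors and signalling, 4 were higher at unadjusted p under 0.05 and 0 lower, against 2.22% and 2.55% of all genes. They were Usp18, which also dampens signalling at the interferon receptor, Irf9 (0.31 ± 0.10, SE) and Stat2 (0.45 ± 0.19), whose products are parts of the factor that binds the ISRE, and Irf7 (0.53 ± 0.23), a driver of interferon production (limma adjusted p = 0.91 each). The count of 4 was 2 without KO replicate 7, 8 or 9 or WT replicate 3 or 5, and 1 without both of these WT replicates.

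Of 13 measured antiviral restriction factors, 1 was higher, against 2.22% of all genes, and 0 were lower. It was the exonuclease gene Trex1, which is dim (means of 4.39 in KO and 4.24 in WT). That count was 0 without KO replicate 6, 7, 8 or 9 or WT replicate 2, 3 or 4, and 4 without WT replicate 1. Of 13 measured signalling partners of TRIM30 and TRIM5 proteins, 0 were apart at unadjusted p under 0.05 in limma, where 4.77% of all genes were. Nlrp3, the inflammasome sensor, had means of 4.57 in KO and 4.88 in WT, and the kinase gene Map3k7 (TAK1), its adaptor gene Tab3 and the autophagy receptor gene Sqstm1 differed by -0.16 ± 0.09, -0.13 ± 0.10 and 0.13 ± 0.08 (SE). The count of 0 was 1 without KO replicate 6 or 8 or WT replicate 1 and 2 without WT replicate 3.

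Finally, genes outside the cluster were ranked by how closely their deviations from genotype means followed those of a cluster gene over the 10 arrays, among 13329 genes above the guide. Nearest to Trim30a were Fyb2 (r = 0.966), the interferon-induced GTPase gene Mx1 (r = 0.965) and Macir (r = 0.964). Nearest to Trim12a were Prss53 (r = 0.934), AI197445 (r = 0.923) and Mrm3 (r = 0.913), and nearest to Trim34a were Gprc5b (r = 0.946), Tlnrd1 (r = 0.943) and Surf6 (r = 0.897). The deviations of Trim12a rest largely on KO signals under the guide, with 2.88 in KO replicate 8. Those of Trim34a include KO replicate 7, which stood apart at 4.60. With so many genes searched over 10 arrays, high values of r occur for any gene, and the ranking is a description only.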

How the data were processed

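RNA was profiled on 10 one-colour arrays, 5 KO and 5 WT tumours. The values the authors deposited are log2 signals, 1 for each array and probe set. The submitters' processing notes name Partek and RMA, a method that subtracts background, equalises arrays and summarises probes. The versions and the genome build were not given in the sources used here, and the log base was taken from the range of the values. Equalising arrays hides a shift of all genes and compresses dim signals. No detection call came with them, and the number of arrays limits the precision.

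Of 23747 probe sets, 23111 had 1 gene symbol in the platform annotation, 0 had several and 636 had none. All 23111 IDs equal the annotated gene number, and 23075 were found in RefSeq (GRCm38.p6), which gave gene order. The table of RefSeq start regions gave sequences, aligned locally with Biopython 1.88 (match 1, mismatch -1, gap opening -2, extension -0.5). KO was compared with WT by limma 3.58.1 in R 4.3.3 (lmFit, eBayes, no covariate), with Benjamini-Hochberg adjustment over all 23111 genes and a threshold of 0.05. By this test 0 genes passed, against 1103 at unadjusted p under 0.05. The fit was tested on simulated data.

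Members, lists and tests were chosen with earlier results of these data known. Named are all members, up to 4 genes of smallest p per list, up to 6 neighbours that are not predicted genes, and the 3 genes most like Trim30a, Trim12a and Trim34a. Others are said to have been named after their values were seen. Pairs of arrays correlated across genes at 0.964 to 0.993, and 0 pairs were identical. The labels give no batch. Alternatives left out arrays or dim genes, renormalized, changed the variance model, weights, thresholds or probe sets, or added a score as covariate. Genes listed but without a row in the table were not analysed here.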

Additional observations from a re-analysis of the deposited data

Results flagged for a closer look

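In each genotype, the 8 cluster genes, the Ucp2 probe set and the scores of the 12 gene lists were searched for an array standing apart from the other 4, and 2 of the 42 groups of 5 held one, where chance gives about 1 in 20. Trim34a read 4.60 in KO replicate 7, against 5.25 to 5.43 in the other KO arrays. Trim30b read 5.03 in WT replicate 1, against 3.71 to 4.09 in the other WT arrays, all under the guide to background.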

How the results depend on the processing

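No paired analysis was possible because the labels number KO samples 6 to 10 and WT samples 1 to 5. The KO minus WT differences of Trim12a, Trim34a, Trim5, Trim30b, Trim30d and Trim12c kept their sign under each alternative that gave a value. Trim30a turned negative with the interferon score (-0.31) or the macrophage score (-0.62) in the fit. Trim6 did so with the macrophage score (-0.19), which left 1 gene higher in KO. The fit with the macrophage score extrapolates, since these scores did not overlap between the genotypes, and the fit with the interferon score does so in part. With single arrays left out, Trim12a ranged from -3.30 to -2.76 and Trim30a from 0.44 to 1.001. Without WT replicates 3 and 5 together, a setting chosen after seeing the data, Trim30a was at 0.04, Trim12c at 0.28 and Trim6 at 0.21. Trim5 and Trim30b gave no value among genes above the guide to background, where 3 cluster genes were lower. Cluster genes with no KO array above the guide numbered 4, 2 with the guide at the 90th and 5 at the 99th percentile. At the 99th the bound of Trim12a was 2.57-fold, that of Trim34a was 1.21-fold and Trim30d had none.

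Over all genes, limma called 0, and 0 to 2 with single arrays left out (Trim12a without KO replicate 8, Gm15133 and Kcne3 without WT replicate 3). It called 2 among genes above the guide (Kcne3 and Trim12a), 1 with an intensity trend and robust estimation together (Kcne3), 1 with the interferon score (Trim30d), 2 with the epithelium score (Kcne3 and Trim30d), 3 over all probe sets (that of Ucp2, Kcne3 and Trim12a) and 1 without both WT replicate 3 and WT replicate 5 (Gm15133). The calls of Trim12a and Trim30d are no test, since the cluster was chosen on this contrast. At unadjusted p under 0.05 and 1.5-fold 107 genes were apart, 63 to 174 with single arrays left out, 481 at 1.2-fold and 49 at 2-fold.

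Counts at unadjusted p under 0.05 moved as follows. With single arrays left out they were 4 to 8 for other Trim genes, 1 to 3 for genes beside the cluster, 5 to 22 for type I interferon genes, 2 to 4 for interferon signalling, 0 to 4 for restriction factors, 0 to 2 for signalling partners and 2 to 5 for T and NK cells. Without both WT replicates 3 and 5 they were 1 for type I interferon genes, 1 for interferon signalling, 0 for restriction factors and 2 for signalling partners. With the macrophage score they were 3 for other Trim genes, 1 beside the cluster and 0 for type I interferon genes, interferon signalling, restriction factors and T and NK cells. With the interferon score they were 5 for macrophages and 0 for restriction factors and T and NK cells. Genes beside the cluster numbered 0 above the guide, 1 after cyclic loess and 4 with an intensity trend and robust estimation together. Restriction factors numbered 0 above the guide, after median centring and with the epithelium score, and signalling partners 1 after quantile normalization. The cause of these moves was not tested. A score was not used as covariate for its own list or, for interferon, for its signalling list. Dim signals limit Trim5, Trim30b and the KO values of Trim12a and Trim30d, and the KO values of Trim34a lie near the guide.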
